A study of Mus musculus with 9 samples.

Results

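Gabrg1, Gabrg3, Gabrd, Gabre and Gabrq encode the gamma1, gamma3, delta, epsilon and theta subunits of the GABA-A receptor. They were read from the count and FPKM tables of a mouse whole-brain RNA-seq study by their gene symbols, and each symbol matched a single row, which gave 5 of 53465 genes. FPKM values are fragments scaled to gene length and library size, so they can be compared between genes, whereas CPM values, counts scaled to library size alone, are compared here only between libraries. All 5 genes were among the 18501 genes with enough counts to be tested.

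The 9 libraries were made each from a different male C57BL/6 mouse that was 7 weeks old at the start, with 3 in each group. The control mice (CON) were normal, non-diabetic animals. Mice with diabetic neuropathic pain (DNP) ate a diet of 60% fat for 4 weeks. They were then injected with 50 mg/kg streptozotocin, which destroys the insulin-producing cells of the pancreas, on each of 7 days, and were assessed for pain 4 weeks later. The BAC mice were treated in the same way and then were injected with 8 mg/kg baclofen, which activates the metabotropic GABA-B receptor, on each of 7 days. CON and DNP mice received saline. Diabetic mice were enrolled only if they had high blood glucose and lowered pain thresholds, so both features were selected for.

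GABA-A receptors are chloride channels built from subunits of several families around a central pore. Most contain alpha and beta subunits together with a further subunit, such as a gamma or delta subunit. The choice of subunits sets where the receptor sits and which drugs act on it. Receptors with delta lie outside synapses, carry a tonic current and respond to neurosteroids, and are known from cerebellar granule cells, dentate gyrus granule cells and the thalamus. Gamma1 and gamma3 are minor relatives of the common synaptic gamma subunit, and gamma1 is also made by some astroglia. Epsilon and theta are known mainly from the hypothalamus and from monoamine cell groups of the midbrain and brainstem.

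The libraries held 13107382 to 16008129 counts, and mitochondrial genes took 4.34% to 5.36% of them in CON and 5.94% to 7.23% in DNP and BAC. Markers of brain regions varied widely between libraries that all carry the label whole brain. The 10 markers of brainstem and spinal cord summed to 0.138 to 28.7 CPM in 6 libraries, and reached 369 CPM in DNP replicate 1 and up to 438 CPM in BAC replicates 1 and 3; Hoxa4, Hoxa5, Hoxb3, Hoxb6, Hoxc4, Hoxc5 and Hoxd3 had no count in the other 6 libraries. The 8 markers of cerebellar granule cells summed to 55.4 to 5311 CPM, with Gabra6, the alpha6 subunit of these cells, at 0 counts in DNP replicates 2 and 3 and BAC replicate 2. The 7 tested markers of the hypothalamus, out of 11 listed, had a mean log2 deviation from the average of the 9 libraries of -1.82 to -0.52 in CON and of 0.09 to 1.05 in DNP and BAC. These values are given because some of the members are known from such regions. In bulk RNA fewer cells of a type and less RNA per cell cannot be told apart.

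The members lie in 4 places of the mouse genome (build GRCm38). Gabrd stands apart from other subunit genes on chromosome 4 (155384980 to 155398112, minus strand). Gabrg1 occupies chromosome 5 from 70751047 to 70842617 on the minus strand, next to Gabra2, Gabra4 and Gabrb1, and Gabrg3 occupies chromosome 7 from 56716465 to 57387188 on the minus strand, in a cluster with Gabra5. Gabre (72255999 to 72274803, minus strand) and Gabrq (72825178 to 72842602, plus strand) flank Gabra3 on chromosome X. The span of Gabrg3 is 671 kb and overlaps 6 processed pseudogenes, 3 of them on the opposite strand, and that of Gabre contains the microRNA genes Mir224 and Mir452. The libraries did not keep the strand, so reads in these overlaps cannot be assigned by strand. No overlapping gene was annotated for the other 3 members.

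RefSeq start-site windows of 300 bases were available for 4 members (build GRCm38.p6), and the bases of these windows that lie before any annotated start of the gene are printed for Gabre and Gabrq, whose counts moved together between libraries, and for Gabrg1, which did not share their pattern of low counts in CON. The sequences run 5′ to 3′ on the strand of the gene, and capitals mark a GC box (GGGCGG) or a CCAAT box (CCAAT) read on either strand.
Gabre (chrX:72274829-72274971): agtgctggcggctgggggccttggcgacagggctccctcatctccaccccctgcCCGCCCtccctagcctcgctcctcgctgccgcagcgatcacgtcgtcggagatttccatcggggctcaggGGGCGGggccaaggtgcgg
Gabrq (chrX:72824928-72825162): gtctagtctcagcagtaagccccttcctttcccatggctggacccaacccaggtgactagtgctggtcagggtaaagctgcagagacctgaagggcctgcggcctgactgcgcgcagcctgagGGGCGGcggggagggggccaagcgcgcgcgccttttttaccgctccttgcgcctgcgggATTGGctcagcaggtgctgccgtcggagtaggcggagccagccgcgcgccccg
Gabrg1 (chr5:70842618-70842867): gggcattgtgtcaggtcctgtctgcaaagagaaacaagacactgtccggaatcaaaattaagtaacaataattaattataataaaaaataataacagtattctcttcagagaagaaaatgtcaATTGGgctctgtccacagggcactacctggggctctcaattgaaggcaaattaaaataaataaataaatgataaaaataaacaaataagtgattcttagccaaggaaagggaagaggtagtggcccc
The windows of Gabre and Gabrq were rich in G and C, at 66.7% and 67.0%, and held 24 and 23 CpG dinucleotides, against medians of 52.7% and 7 over 32851 promoter windows. That of Gabrg1 had 38.3% G and C and 3 CpG, and that of Gabrg3 61.0% and 13. The whole window held 3 GC boxes for Gabre, 2 for Gabrq, 1 for Gabrg3 and 0 for Gabrg1; 35.7% of all windows held at least 1. A CCAAT box was found once each in the windows of Gabrq and Gabrg1 (37.4% of windows hold one), and a TATA box (TATAAA) in none of the 4 (13.6% of windows). The motifs do not overlap each other in the printed bases, and a match in these letters is a description of the sequence only.

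Gabrd had the highest level per length of the 5 genes in each of the 9 libraries. Its mean was 25.0 FPKM ± 15.6 (SD over 9 libraries). Gabrg1 followed with 2.77 FPKM ± 1.34, Gabrg3 with 2.18 ± 0.999, Gabrq with 1.22 ± 1.52 and Gabre with 0.425 ± 0.485. Gabrg1 exceeded Gabrg3 in 5 of 9 libraries and Gabrg3 exceeded Gabrq in 6 of 9, so neither of these neighbours in the order differed beyond their spread. Gabrq exceeded Gabre in 8 of 9. The share of Gabrd in the summed FPKM of the 5 genes was 73.7% to 96.9% in 7 libraries, and 40.7% and 41.4% in DNP replicate 1 and BAC replicate 3, where Gabrq made up 21.4% and 19.9%. In the plot of levels by library, Gabre and Gabrq lie near 0 in CON and spread widely in DNP and BAC.

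**Figure D1:**
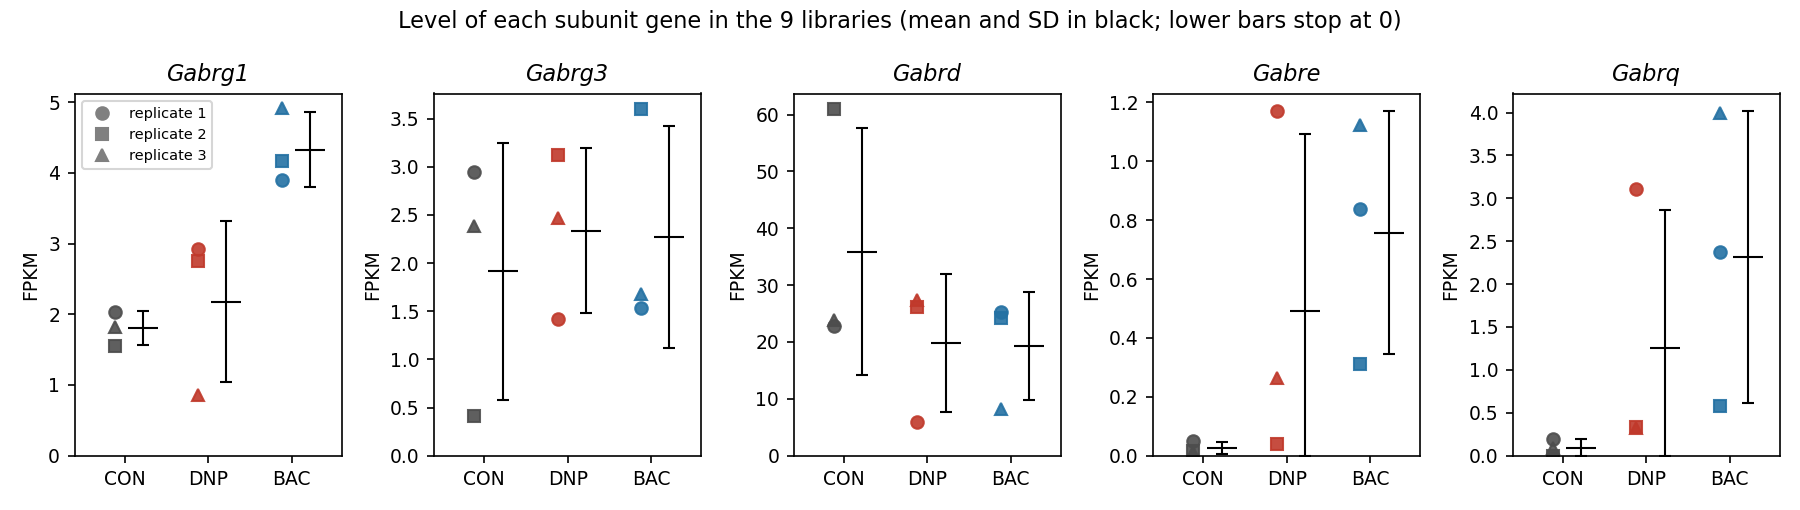
FPKM (vertical axis, from 0, a separate scale for each gene) of the 5 subunit genes in the 3 libraries of each group, with marker shapes for replicates 1 to 3 and the group mean ± SD in black. The BAC libraries of Gabrg1 lie at 3.90 to 4.92 FPKM, above all CON and DNP libraries, and the CON libraries of Gabre and Gabrq lie at or below 0.0499 and 0.189 FPKM.

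None of the 5 members passed edgeR's quasi-likelihood test at an adjusted p of 0.05 in any comparison, as was the case for all 18501 genes (0% called in each). With an unadjusted p under 0.05 there were 2 members in DNP versus CON (Gabre and Gabrq), where 11.2% of all genes reached it, 1 in BAC versus DNP (Gabrg1), where 2.37% did, and 3 for BAC over CON (Gabrg1, Gabre and Gabrq), where 7.76% did. All of these were higher in the group named first, a direction that 5.71%, 1.37% and 4.46% of all genes had at that p, against 5.46%, 1% and 3.3% in the other. Groups did not overlap for Gabrq in the first comparison (18.2% of all genes, 9.59% in its direction), Gabrg1 in the second (6.79% and 3.38%) and 3 members in the third (13.4% and 7.21%), each higher in the first group. DESeq2, run as an alternative, called 346 genes in DNP versus CON (2.03% of the 17038 with an adjusted p), 7 in BAC versus DNP (0.0379%) and 101 for BAC over CON (0.569%), among them Gabre in DNP versus CON and Gabre and Gabrq in BAC versus CON. The median log2 fold change of the 5 members was 0.23, 0.59 and 1.19 in the 3 comparisons, beside 0.01, -0.01 and -0.02 over all genes. The 3 comparisons share their groups and are not independent of each other.

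**Figure D2:**
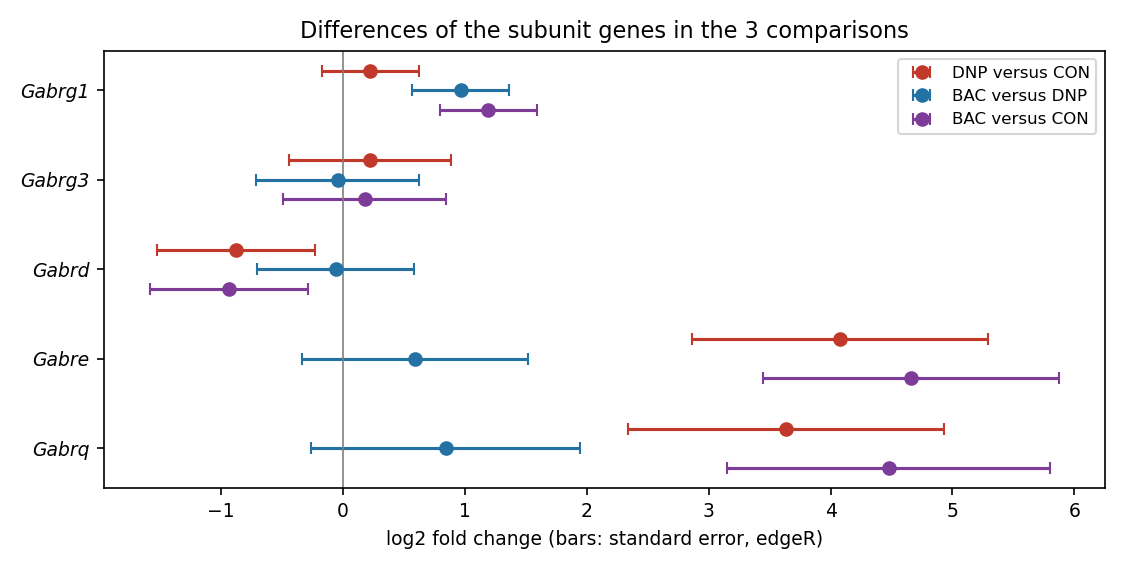
Log2 fold change (horizontal axis) with its standard error from edgeR for the 5 genes in the 3 comparisons, each drawn as the first group named over the second. Gabre and Gabrq stand at 3.63 to 4.66 against CON with errors of 1.21 to 1.33, and Gabrg3 lies within 1 standard error of 0 in all 3 comparisons.

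Gabre, the epsilon subunit gene, was almost silent in CON and present in most diabetic libraries. Its counts were 4, 1 and 1 in CON replicates 1 to 3, 81, 3 and 20 in DNP and 55, 23 and 87 in BAC. All BAC libraries lay above all CON libraries, whereas DNP replicate 2, with 3 counts, lay below CON replicate 1. The summed counts, scaled for library size, were 17.2 times higher in DNP than in CON (104 against 6 counts, exact conditional 95% interval 7.64 to 47.9) and 27.0 times higher in BAC than in CON (165 against 6 counts, 12.1 to 74.7), where the intervals cover counting error only. The log2 fold change was 4.07 ± 1.21 (SE) in DNP versus CON (adjusted p = 0.339, edgeR) and 4.66 ± 1.21 in BAC versus CON (adjusted p = 0.628, edgeR). DESeq2 gave adjusted p of 0.0244 and 0.0146 for these. Between BAC and DNP, the difference was 0.59 ± 0.93 (adjusted p = 0.998, edgeR), and the groups overlapped. A single library set much of the mean of DNP: without DNP replicate 1 the log2 fold change against CON was 2.40 ± 0.99, and that of BAC over DNP was 2.26 ± 0.85 (adjusted p = 0.665, edgeR). With each library left out in turn, the BAC to DNP value ran from 0.05, without DNP replicate 2, to that 2.26.

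Gabrq, the theta subunit gene, followed the same pattern at a higher level. There were 18, 0 and 8 counts in CON, 255, 29 and 29 in DNP and 185, 51 and 366 in BAC. The 0 in CON replicate 2 allows up to 3 counts, or 0.213 CPM. Every DNP and BAC library lay above every CON library, and the highest counts were those of the libraries with brainstem markers (DNP replicate 1, BAC replicate 1 and BAC replicate 3). Summed and scaled counts were 11.9 times higher in DNP than in CON (exact conditional 95% interval 8.00 to 18.6, counting error only) and 22.7 times higher in BAC than in CON (15.4 to 35.1). On the log2 scale the differences were 3.63 ± 1.3 in DNP versus CON (adjusted p = 0.382, edgeR) and 4.48 ± 1.33 in BAC versus CON (adjusted p = 0.628, edgeR). The adjusted p from DESeq2 was 0.0630 and 0.0265. BAC and DNP differed by 0.84 ± 1.10 (adjusted p = 0.998, edgeR) and overlapped. Without DNP replicate 1 the difference between DNP and CON was 1.70 on the log2 scale, and that between BAC and DNP was 2.78 ± 1.09 (adjusted p = 0.665, edgeR). The BAC to DNP value ran from 0.19, without BAC replicate 3, to that 2.78 as each library was left out.

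Both genes were also read without the 3 libraries that carried brainstem markers, an alternative chosen after the data were seen, which leaves 2 DNP libraries and 1 BAC library, the latter assumed to vary like the other groups. Gabre was then 2.39 ± 1.02 higher in DNP than in CON on the log2 scale (adjusted p = 0.526, edgeR), and 3.44 ± 1.11 higher in BAC than in CON (adjusted p = 0.939, edgeR). For Gabrq the values were 1.69 ± 1.03 (adjusted p = 0.601, edgeR) and 2.55 ± 1.17 (adjusted p = 0.939, edgeR). With the cerebellar granule and brainstem scores as covariates in the model, the DNP to CON difference was 1.15 ± 1.46 for Gabre and -0.36 ± 0.79 for Gabrq, and the BAC to CON difference was 1.31 ± 1.40 and -0.09 ± 0.73. Only diabetic libraries had a high brainstem score, so this model cannot fully separate region from group.

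Levels of Gabre and Gabrq ran in parallel across libraries (Pearson r = 0.923, exact permutation p = 0.000102, adjusted p = 0.00163 over 16 pairs; Spearman rho = 0.917, exact permutation p = 0.00131, adjusted p = 0.0210). Without CON replicates 2 and 3, the farthest from the median, r was 0.921. Gabra3, which lies between them on chromosome X and encodes the alpha3 subunit, had 6.24 to 26.6 FPKM in CON, 22.1 to 25.2 in DNP and 18.4 to 26.5 in BAC. Its CON replicates 1 and 3 lay at 26.6 and 25.0 FPKM, as high as the diabetic libraries, and CON replicate 2 was the lowest. Pearson r was 0.213 with Gabre (exact permutation p = 0.727, rho = -0.250 with exact permutation p = 0.521) and 0.457 with Gabrq (exact permutation p = 0.227, rho = -0.200 with exact permutation p = 0.613), with adjusted p of 0.403 to 0.831. Without the 2 farthest libraries these were -0.746 and -0.751.

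**Figure D3:**
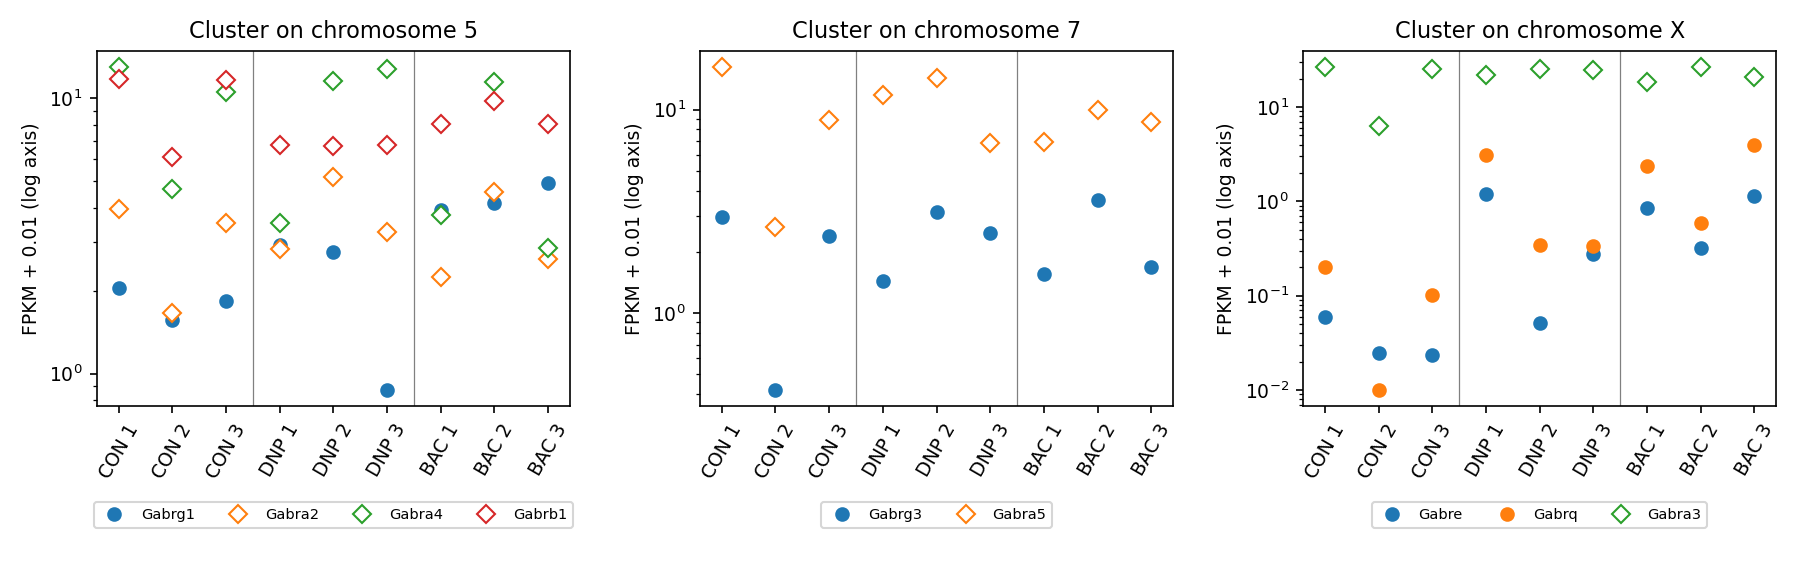
FPKM + 0.01 (vertical log axis) in the 9 libraries for the members (filled circles) and the neighbouring subunit genes of their clusters (open diamonds) on chromosomes 5, 7 and X. Gabra3 lies between 6.24 and 26.6 FPKM in every library, while Gabre and Gabrq lie below 0.2 FPKM in CON and reach 1.17 and 3.99 FPKM in diabetic libraries.

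The marker lists whose mean score moved with Gabre and Gabrq were those of the hypothalamus, of monoamine neurons and of blood. Gabrq correlated with the hypothalamus score at r = 0.959 (exact permutation p = 1.38e-05, adjusted p = 0.000965 over 70 pairs of member and list) and rho = 0.983 (exact permutation p = 4.96e-05, adjusted p = 0.00347), and r was 0.933 without CON replicates 2 and 3. Within the 6 diabetic libraries r was 0.974 (exact permutation p = 0.00972, adjusted p = 0.227). For Gabre and the hypothalamus score r was 0.891 (exact permutation p = 0.000650, adjusted p = 0.0146) and rho 0.933 (exact permutation p = 0.000750, adjusted p = 0.0131), with 0.872 without the same libraries and 0.844 within the diabetic ones (exact permutation p = 0.0347, adjusted p = 0.232). The smallest p that 6 libraries allow is too large for a lone relation to pass over 70 pairs.

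The 11 hypothalamus markers summed to 3.35 to 9.49 CPM in CON, 15.4 to 48.8 in DNP and 26.7 to 39.3 in BAC. Of the 7 tested, 6 were higher and 1 lower in DNP than in CON. At an unadjusted p under 0.05 in edgeR 4 were higher, and 0 passed the adjusted threshold. Of all tested genes 11.2% reached that p, and 5.71% were higher at it. The 7 tested markers did not move alike. Summed counts in CON, DNP and BAC were 1, 92 and 245 for Gal, 8, 391 and 250 for Otp and 54, 504 and 341 for Trh. They were 28, 74 and 310 for Avp and 79, 225 and 97 for Pomc. For Nkx2-1 they were 38, 73 and 51, and for Agrp 36, 20 and 30. Pmch and Hcrt, which encode the peptides of lateral hypothalamic neurons, and Oxt and Sim1 had too few counts to be tested. Defining markers at 0 counts were Hcrt, Pmch, Gal and Sim1 in CON replicate 2, Gal in CON replicate 1, Oxt, Sim1 and Otp in CON replicate 3, Sim1 and Otp in DNP replicate 2, Sim1 in DNP replicate 3, and Hcrt, Sim1 and Nkx2-1 in BAC replicate 1. The part of these markers in the levels of Gabre and Gabrq was not tested.

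The 10 monoamine markers, which include Th and Tph2, the enzymes that begin catecholamine and serotonin synthesis, summed to 14.1 to 25.0 CPM in CON, 25.5 to 257 in DNP and 31.3 to 481 in BAC, and were highest in DNP replicate 1 and BAC replicate 3. Of the list 9 were higher in DNP than in CON, and 3 were higher with an unadjusted p under 0.05 in edgeR, against 5.71% of all genes. Slc6a4 was at 0 counts in CON replicates 2 and 3, Dbh and Slc6a3 in CON replicate 2, Slc6a2 in CON replicates 1 and 2, DNP replicates 2 and 3 and BAC replicate 2, and Fev in BAC replicate 2. Gabrq correlated with this score at r = 0.819 (exact permutation p = 0.00305, adjusted p = 0.0237) and rho = 0.883 (exact permutation p = 0.00308, adjusted p = 0.0359), with 0.757 without DNP replicate 1 and BAC replicate 3. For Gabre r was 0.810 (exact permutation p = 0.00243, adjusted p = 0.0237), rho 0.783 (exact permutation p = 0.0172, adjusted p = 0.121) and r without these libraries 0.709. Within the diabetic libraries r was 0.907 for Gabrq (exact permutation p = 0.0250, adjusted p = 0.232) and 0.745 for Gabre (exact permutation p = 0.0861, adjusted p = 0.232).

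Blood markers, the globin genes and Alas2, summed to 188 to 218 CPM in CON, 477 to 683 in DNP and 471 to 735 in BAC, and none was at 0 in a library. All 5 were higher in each DNP and BAC library than in each CON library. Over all tested genes, 9.59% lay above CON in this way in DNP and 7.21% in BAC. The pooled r with this score was 0.864 for Gabrq (exact permutation p = 0.00295, adjusted p = 0.0237; rho = 0.883, exact permutation p = 0.00308, adjusted p = 0.0359) and 0.863 for Gabre (exact permutation p = 0.00409, adjusted p = 0.0286; rho = 0.850, exact permutation p = 0.00607, adjusted p = 0.0607), and 0.692 and 0.734 without CON replicates 2 and 3. Within the 6 diabetic libraries it was 0.576 (exact permutation p = 0.164, adjusted p = 0.320) and 0.633 (exact permutation p = 0.160, adjusted p = 0.320). The shuffling of libraries ignored group. For Gabrq and for the blood, hypothalamus and monoamine scores, every CON library lay below every diabetic library. There the pooled test cannot tell a relation from a difference between groups. No pooled value is given for the brainstem and spinal cord score, as the 3 libraries with such markers stood apart from the rest. Within the 6 others r was -0.985 for Gabrq (exact permutation p = 0.00556, adjusted p = 0.0556) and -0.764 for Gabre (exact permutation p = 0.0653, adjusted p = 0.218), over scores of -2.54 to -1.64 that rest on few counts.

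**Figure D4:**
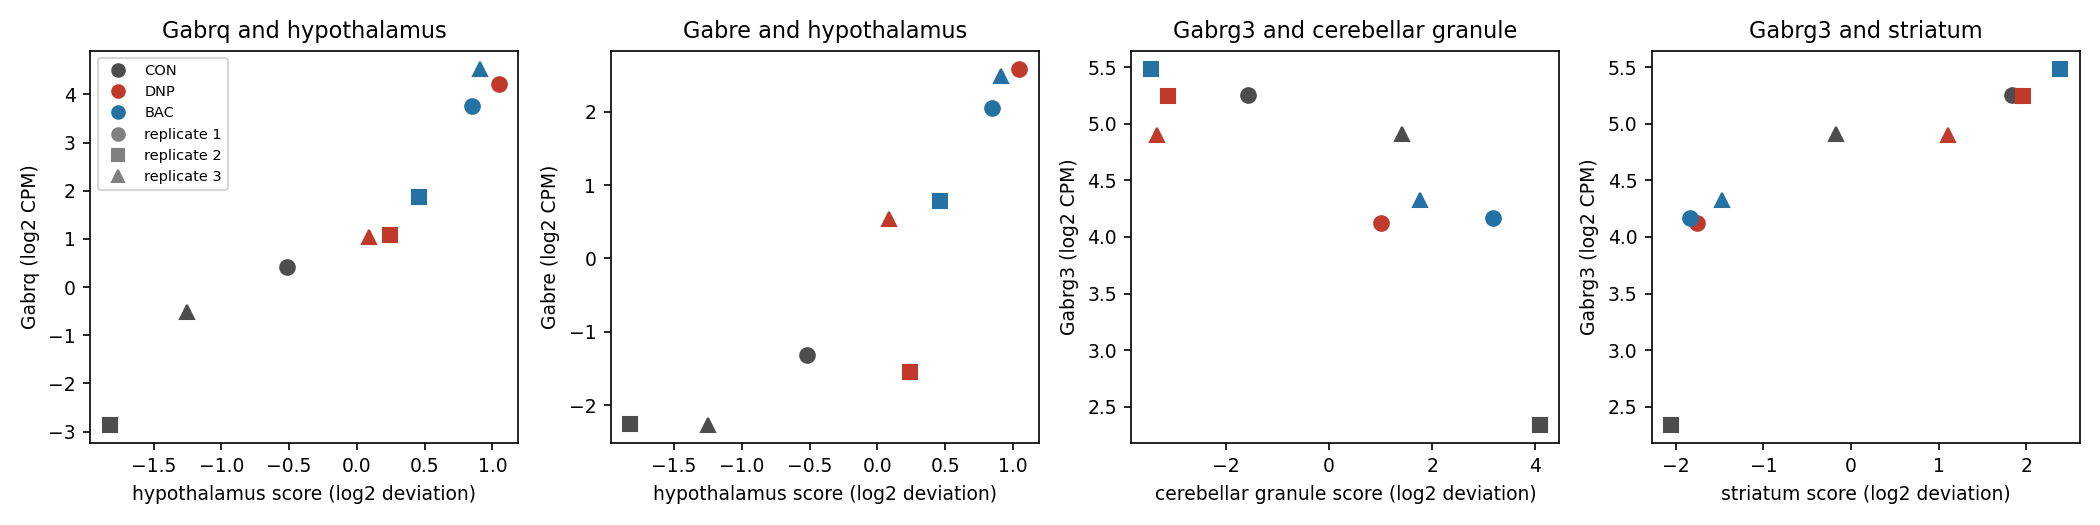
Log2 CPM (vertical axis) of Gabrq and Gabre against the hypothalamus score and of Gabrg3 against the cerebellar granule and striatum scores (horizontal axes, mean log2 deviation of the tested markers), 1 point for each of the 9 libraries. The 3 CON libraries lie lowest on the hypothalamus axis, and Gabrg3 is lowest in CON replicate 2, which has the highest cerebellar granule score, 4.08.

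Gabrg1, the gamma1 subunit gene, was the only member whose BAC libraries all lay above its DNP libraries. It had 2.04, 1.56 and 1.84 FPKM in CON, 2.92, 2.76 and 0.862 in DNP and 3.90, 4.17 and 4.92 in BAC. DNP replicate 3 was the lowest library and the BAC libraries were the 3 highest. Its group means were 1.81 FPKM ± 0.240 (CON), 2.18 FPKM ± 1.15 (DNP) and 4.33 FPKM ± 0.530 (BAC), as mean ± SD with n = 3. The log2 fold change was 0.97 ± 0.40 for BAC over DNP (adjusted p = 0.998, edgeR) and 1.19 ± 0.40 for BAC over CON (adjusted p = 0.628, edgeR), and neither passed the threshold after adjustment. In DNP versus CON it was 0.23 ± 0.40 (adjusted p = 0.878, edgeR), with overlapping groups. With each library left out in turn, the BAC to DNP value ran from 0.58 to 1.24, and with the 2 region scores as covariates it was 0.89 ± 0.40. The BAC to CON value with these covariates was 0.51 ± 0.71, in place of 1.19 (adjusted p = 0.802, edgeR).

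The cluster neighbours of Gabrg1 on chromosome 5 had no correlation with it that passed after adjustment. The BAC libraries of Gabrb1, at 8.07 to 9.73 FPKM, nevertheless all lay above its DNP libraries, at 6.67 to 6.75, as those of Gabrg1 did. In CON, Gabrb1 had 6.08 to 11.8 FPKM. Gabra4 ran from 2.86 to 13.0 FPKM and was lowest in BAC replicate 3, where Gabrg1 was highest. Pearson r with Gabrg1 was -0.454 for Gabra4 (exact permutation p = 0.219, adjusted p = 0.403; rho = -0.500, exact permutation p = 0.178), 0.0915 for Gabra2 (exact permutation p = 0.816, adjusted p = 0.870; rho = 0.0333, exact permutation p = 0.948) and 0.168 for Gabrb1 (exact permutation p = 0.671, adjusted p = 0.826; rho = 0.317, exact permutation p = 0.410). Without DNP replicate 3 and CON replicate 2 they were -0.581, -0.374 and -0.490. Of the 14 marker lists, none passed for Gabrg1 after adjustment. Its largest rho were 0.800 with cholinergic markers (exact permutation p = 0.0138, adjusted p = 0.121) and 0.783 with hypothalamus markers (exact permutation p = 0.0172, adjusted p = 0.121). Their r was 0.520 and 0.589. With the thalamus score r was -0.772, and -0.390 within the 8 libraries other than DNP replicate 3. For Gabrg1 and Gabrq rho was 0.833 (exact permutation p = 0.00827, adjusted p = 0.0661) and r 0.646. The astrocyte score, whose 6 markers summed to 1017 to 1836 CPM in CON, 865 to 1285 in DNP and 1191 to 1987 in BAC, none at 0, had r = 0.515 (exact permutation p = 0.155, adjusted p = 0.340; rho = 0.500, exact permutation p = 0.178), and 0.211 without the 2 farthest libraries. All 6 markers were higher in BAC than in DNP by their log2 fold change, 1 of them with an unadjusted p under 0.05 in edgeR. Of all tested genes 1.37% were higher at that p.

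Gabrg3, the gamma3 subunit gene, varied more within groups than between them. Levels were 2.95, 0.409 and 2.39 FPKM in CON, 1.42, 3.12 and 2.47 in DNP and 1.54, 3.60 and 1.68 in BAC. All groups overlapped, and the lowest value, in CON replicate 2, was 8.80 times below the highest, in BAC replicate 2. The log2 fold changes were 0.22 ± 0.67 for DNP over CON, 0.18 ± 0.67 for BAC over CON and -0.04 ± 0.67 for BAC over DNP (adjusted p = 0.939, 0.957 and 0.999, edgeR). Without CON replicate 2 the differences from CON were -0.27 and -0.31, and with the 2 region scores as covariates they were -1.24 ± 0.65 and -0.79 ± 0.69.

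These differences between libraries went with region markers. Gabrg3 was higher where the 6 striatum markers, such as the dopamine receptor genes Drd1 and Drd2, were higher (r = 0.818, exact permutation p = 0.000835, adjusted p = 0.0146; rho = 0.950, exact permutation p = 0.000353, adjusted p = 0.0123), and r was 0.751 without BAC replicate 2 and DNP replicate 2. It was lower where the 8 cerebellar granule markers were higher (r = -0.814, exact permutation p = 0.00161, adjusted p = 0.0188; rho = -0.767, exact permutation p = 0.0214, adjusted p = 0.125), with -0.811 without BAC replicate 2 and DNP replicate 3. For the 5 markers of Bergmann glia and Purkinje cells r was -0.820 (exact permutation p = 0.00142, adjusted p = 0.0188; rho = -0.767, exact permutation p = 0.0214, adjusted p = 0.125) and -0.757 without the 2 farthest libraries. The score of oligodendrocyte precursors gave r = 0.875 (exact permutation p = 0.000322, adjusted p = 0.0113; rho = 0.933, exact permutation p = 0.000750, adjusted p = 0.0131), and 0.864 without CON replicates 1 and 2. The striatum markers summed to 214 to 1079 CPM in CON, 136 to 1079 in DNP and 141 to 1507 in BAC, and the precursor markers to 179 to 360, 213 to 272 and 202 to 330, with no marker of these lists at 0 in a library. Their part in the level of Gabrg3 was not tested. Within the 6 diabetic libraries r was 0.991 with striatum (exact permutation p = 0.00278, adjusted p = 0.194), -0.917 with cerebellar granule cells (exact permutation p = 0.0528, adjusted p = 0.232) and 0.902 with oligodendrocyte precursors (exact permutation p = 0.00972, adjusted p = 0.227), none of which passed after adjustment. With 6 libraries a lone relation could not pass that adjustment, whatever its r.

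Gabra5, the alpha5 subunit gene of the cluster on chromosome 7, had a positive correlation with Gabrg3 that did not pass after adjustment. It had 2.63 to 16.2 FPKM and r = 0.838 (exact permutation p = 0.0133, adjusted p = 0.0533; rho = 0.650, exact permutation p = 0.0666), or 0.677 without CON replicate 2 and DNP replicate 1.

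**Figure D5:**
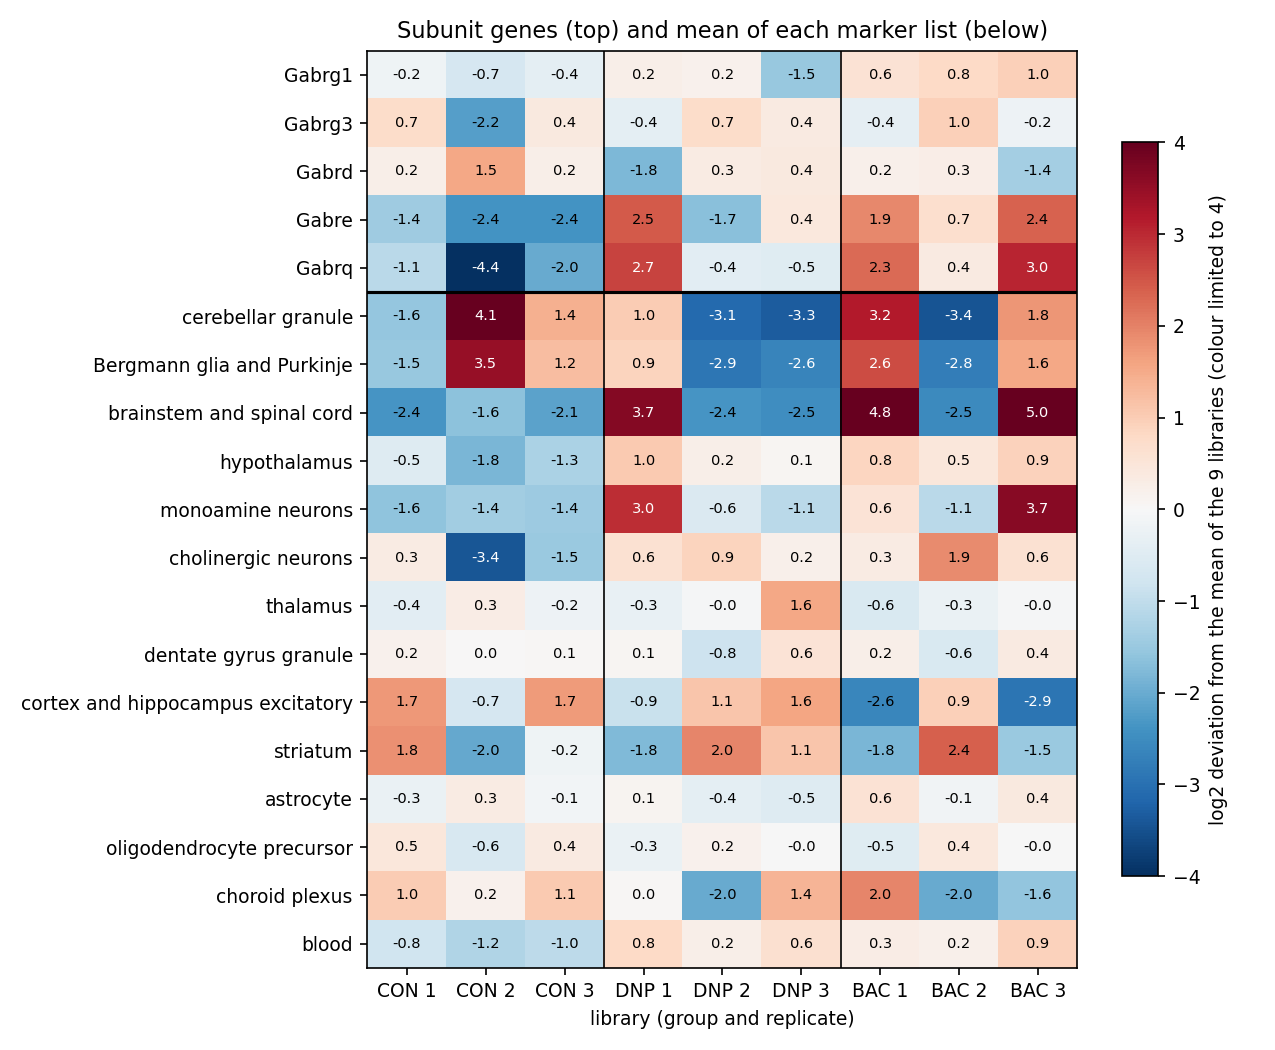
Log2 deviation of each library from the mean of the 9 libraries for the 5 members (upper rows) and for the mean of the tested genes of 14 marker lists (lower rows), with columns for the libraries; colour is limited to 4 in either direction. The brainstem row is positive only for BAC replicates 1 and 3 and DNP replicate 1, where Gabrq is also highest, and the hypothalamus row is negative in the 3 CON libraries only.

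Gabrd, the delta subunit gene, was highest in a control library and lowest in a pair of diabetic ones. Values were 22.8, 61.0 and 23.9 FPKM in CON, 5.92, 26.2 and 27.5 in DNP and 25.3, 24.3 and 8.28 in BAC. Outside CON replicate 2, DNP replicate 1 and BAC replicate 3, the 6 libraries lay between 22.8 and 27.5 FPKM, across all 3 groups. The log2 fold change was -0.88 ± 0.65 in DNP versus CON (adjusted p = 0.644, edgeR), -0.94 ± 0.65 in BAC versus CON (adjusted p = 0.731, edgeR) and -0.06 ± 0.64 in BAC versus DNP (adjusted p = 0.999, edgeR). The groups overlapped in each comparison, and without CON replicate 2 the DNP to CON and BAC to CON values were -0.31 and -0.36. With the cerebellar granule and brainstem scores as covariates they were 0.86 ± 0.64 and 1.46 ± 0.71, in the opposite direction. CON replicate 2 had the highest cerebellar granule score, and DNP replicate 1 and BAC replicate 3 the highest monoamine scores. Across libraries, r with the cerebellar granule score was -0.0207 (exact permutation p = 0.949, adjusted p = 0.949; rho = -0.200, exact permutation p = 0.613), and 0.134 without the 2 farthest. With the monoamine score it was -0.878 (exact permutation p = 0.0109, adjusted p = 0.0697; rho = -0.517, exact permutation p = 0.162), and -0.278 without DNP replicate 1 and BAC replicate 3, so this relation rested on those libraries. For dentate gyrus granule markers r was -0.196 (exact permutation p = 0.639, adjusted p = 0.864), and for hypothalamus markers -0.741 (exact permutation p = 0.0240, adjusted p = 0.105). On the thalamus score DNP replicate 3 stood apart, and within the other 8 libraries r was 0.304 (exact permutation p = 0.457, adjusted p = 0.508). Gabrd was also inversely related to Gabrq (r = -0.843, exact permutation p = 0.00305, adjusted p = 0.0244; rho = -0.733, exact permutation p = 0.0311, adjusted p = 0.147) and to Gabre (r = -0.752, exact permutation p = 0.00622, adjusted p = 0.0332; rho = -0.717, exact permutation p = 0.0369, adjusted p = 0.147). Without DNP replicate 1 and BAC replicate 3 these were -0.773 and -0.441.

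The genes whose log2 CPM was most like that of each member over the 9 libraries were taken from 16783 tested genes with a mean of at least 1 CPM. For Gabrq they were Gm6166 (r = 0.994), Arhgap36 (0.980) and Entpd3 (0.979), and for Gabre they were Tmem29 (0.978), Wipf1 (0.974) and Erbin (0.974). Il13ra1 (0.937), Gm37891 (0.934) and Cdkl3 (0.915) were nearest to Gabrg1. Those nearest to Gabrg3 were Gm37928 (0.984), Stk26 (0.979) and Gm2136 (0.976), and those nearest to Gabrd were Yod1 (0.984), Celf1 (0.982) and Armc8 (0.975). These values are descriptions, since the genes were picked as the most alike among many and share the same libraries.

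Of the alpha, beta, pi and rho subunits with which the members could assemble, 11 genes were read as a list, and 8 of these could be tested. Gabrp had no count in any library, and Gabrr1 and Gabrr3 had at most 5 and 2 counts in a library. In DNP versus CON 0 of 8 passed the adjusted threshold, and the median log2 fold change was 0.05. At an unadjusted p under 0.05 in edgeR, 2 were lower and 1 was higher, where 5.46% and 5.71% of all genes were. The lower genes were Gabrb2 and Gabrb1, which encode the widespread beta2 subunit and beta1. Gabrb2 had 17.9, 22.3 and 19.8 FPKM in CON, 10.4, 6.72 and 5.83 in DNP and 17.1, 10.8 and 13.3 in BAC. Each DNP library lay below each CON library, and each BAC library lay between these groups. Its log2 fold change was -1.42 ± 0.24 in DNP versus CON (adjusted p = 0.294, edgeR; adjusted p = 0.000116, DESeq2), 0.81 ± 0.24 for BAC over DNP (adjusted p = 0.998, edgeR; adjusted p = 0.831, DESeq2) and -0.61 ± 0.24 for BAC over CON (adjusted p = 0.628, edgeR).

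Gabrb1 differed by -0.60 ± 0.26 on the log2 scale in DNP versus CON (adjusted p = 0.444, edgeR) with overlapping groups. Gabrr2, the rho2 subunit gene, was the higher one, with 6 to 15 counts in CON, 17 to 54 in DNP and 21 to 32 in BAC, and a log2 fold change of 1.57 ± 0.48 in DNP versus CON (adjusted p = 0.352, edgeR). Gabra2, Gabra3, Gabra4, Gabra5 and Gabra6 had overlapping groups in all 3 comparisons. Gabra6, which in the cerebellum assembles with delta, had 42, 4828 and 735 counts in CON, 432, 0 and 0 in DNP and 2808, 0 and 954 in BAC. In BAC versus DNP 1 of the 8 had an unadjusted p under 0.05, Gabrb2, and the median was -0.21. In BAC versus CON there were 2, with Gabrb2 lower and Gabrr2 higher, and the median was -0.23. Of all tested genes 2.37% and 7.76% reached that p in these comparisons. Between BAC and DNP, groups did not overlap for 2 of the 8, Gabrb1 and Gabrb2. Both were higher in BAC, as were 3.38% of all genes.

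Of 16 genes for trafficking and clustering of GABA-A receptors, 0 passed the adjusted threshold in any comparison. At an unadjusted p under 0.05, 2 were higher in DNP than in CON and 2 in BAC than in CON, where 5.71% and 4.46% of all genes were. The median log2 fold change was 0.03, 0.01 and 0.01 in the 3 comparisons. Gabarap, which encodes a receptor-associated protein of intracellular transport, had 22.9 to 24.3 FPKM in CON, 31.6 to 35.1 in DNP and 29.2 to 35.3 in BAC. Its log2 fold change was 0.45 ± 0.12 in DNP versus CON (adjusted p = 0.325, edgeR; adjusted p = 0.0389, DESeq2). Plcl1, a receptor-binding protein related to phospholipase C, differed by 1.06 ± 0.41 (adjusted p = 0.404, edgeR) and Nlgn2, the adhesion molecule neuroligin 2 of inhibitory synapses, by -0.33 ± 0.18 (adjusted p = 0.518, edgeR).

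Neurosteroid synthesis supplies ligands to which delta-containing receptors are especially sensitive. Of 10 genes 7 could be tested, and 0 passed the adjusted threshold in any comparison. Hsd17b10 was the nearest in DNP versus CON, at 0.47 ± 0.19 on the log2 scale (adjusted p = 0.411, edgeR), with 6.25 to 8.69 FPKM in CON, 8.69 to 12.1 in DNP and 8.01 to 9.67 in BAC. Tspo, the translocator protein of the outer mitochondrial membrane, differed by 0.45 ± 0.24 (adjusted p = 0.519, edgeR), and Srd5a3 by 0.17 ± 0.18 (adjusted p = 0.761, edgeR). The list's medians were 0.02, -0.14 and -0.02 in the 3 comparisons. At an unadjusted p under 0.05 in edgeR, 1 gene was higher in DNP than in CON, where 5.71% of all genes were. In BAC against either group 1 gene was lower at that p, Cyp11a1. Of all genes 1% were lower in this way against DNP and 3.3% against CON. Cyp11a1 was named after its values were seen.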

How the data were processed

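Tables were deposited, of counts and of FPKM, for brains of 9 mice (3 each in CON, DNP and BAC); the deposited counts are whole numbers without normalization. Per the labels and the methods, the authors filtered non-strand-specific paired-end reads with fastp, aligned them to GRCm38 with HISAT2 2.1.0 and quantified genes with StringTie 1.3.3b. How reads shared by several genes were counted is not given in the sources used here. The deposited FPKM equals the count divided by a gene length and the library total, so it carries no TMM factor. Counts were tested with edgeR 4.0.16 in R 4.3.3 (filterByExpr, minimum count 10, TMM, quasi-likelihood test, 9 libraries in 1 model, Benjamini-Hochberg, threshold 0.05). CPM use TMM-scaled totals, and log2 CPM a prior count of 2. A marker score is the mean log2 deviation of the tested genes of a list. Correlations used exact two-sided permutation tests, adjusted over 70 pairs of member and list, 16 gene pairs or, where libraries stood apart, 10 pairs within the larger set.

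DESeq2 1.42.0, limma 3.58.1 on log2 FPKM, other normalizations, no filter, a replicate block, region scores and each library left out were alternatives, and the pipeline was tested on simulated data. The biological coefficient of variation was 36.5%. The libraries came from separate mice; replicates of a group differed by more than sampling noise (chi-square per degree of freedom 15.8 to 122.6). Genes named are the 5 members, the partner subunits (some are not reported here), the 3 genes most alike to each member, the 3 genes with the smallest p in DNP versus CON of each pathway list and markers of the lists described. Members and lists were chosen with earlier results of these data known.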

Additional observations from a re-analysis of the deposited data

How the results depend on the processing

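With DESeq2, 346 genes passed for DNP over CON, 7 for BAC over DNP and 101 for BAC over CON; 1 member passed in DNP versus CON and 2 in BAC versus CON, and 2 genes of the partner and pathway lists passed in DNP versus CON. edgeR called 0 in each. Over the libraries left out in turn, edgeR called 0 to 1 genes in DNP versus CON and in BAC versus CON, 1 without CON replicate 2 or CON replicate 3. The count of relations between members and marker lists that passed by Pearson r was 10, and 3 to 13 with a library left out, the fewest without BAC replicate 2. Fewer passed by Spearman rho, where Gabrg3 with cerebellar granule markers had an adjusted p of 0.125 (exact permutation test). Within the 6 diabetic libraries none passed, and the lowest adjusted p was 0.194 (exact permutation test). The cause of these differences was not tested.

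Some differences turned direction. The BAC to DNP difference of Gabrd became 0.069 and 0.084 when limma was run on log2(FPKM + 1) and log2(FPKM + 0.1). With the cerebellar granule and brainstem scores as covariates, DNP versus CON became -0.38 for Gabrg1, -1.24 for Gabrg3, 0.86 for Gabrd and -0.36 for Gabrq, BAC versus DNP 0.45 for Gabrg3 and 0.60 for Gabrd, and BAC versus CON -0.79 for Gabrg3, 1.46 for Gabrd and -0.089 for Gabrq. No CON library had a high brainstem score, so the values against CON cannot fully separate region from group. Without the 3 libraries with brainstem markers, chosen after seeing the data, Gabrg1 in DNP versus CON became -0.057 and Gabrg3 in BAC versus DNP 0.41. With a library left out, Gabrg1 ran from -0.044 to 0.61 in DNP versus CON, Gabrg3 from -0.27 to 0.70 in the same comparison, from -0.59 to 0.23 for BAC over DNP and from -0.37 to 0.66 for BAC over CON, and Gabrd from -0.49 to 0.31 in BAC versus DNP. Of 284 alternative values of single members, 256 kept direction and side of the threshold, 3 newly passed it and 25 turned direction. Gabre fell under the filter when only the 6 libraries of DNP and CON were fitted, so no value exists there. Whether the replicate numbers mark a shared source is not known. Deviations of same-numbered libraries correlated at -0.58 to 0.56, and between DNP and BAC at 0.50, 0.56 and -0.31 for replicates 1 to 3. These values cannot settle the point, since pairs with different numbers were not set beside them. With a replicate block, edgeR called 0 genes in each comparison, and only the BAC to DNP difference of Gabrd turned direction, to 0.015. With 3 mice a group, differences of the size of the standard errors given could not be detected. In CON, Gabre had 1 to 4 counts and Gabrq 0 to 18, which limits their folds.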
